A study of Rattus norvegicus with 10 samples.

Results

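The enzymes that clear superoxide and peroxide, together with the thioredoxins and thioredoxin reductases, were followed in the testes of Zucker rats on 10 Affymetrix expression arrays. Each gene was taken from probe sets that carried its symbol and no other, and the brightest of several on average would have been kept, which gave 1 probe set for each of 10 genes out of 18166 genes measured. Of the 10 genes, 7 are expressed in many tissues (Sod1, Sod2, Sod3, Cat, Txn1, Txnrd1 and Txnrd2) and 3 belong mainly to male germ cells (Txnrd3, Txndc2 and Txndc8). The groups were under-developed testes of obese rats (4 arrays), normal testes of obese rats (4 arrays) and normal testes from lean rats (2 arrays). All rats were 14 weeks old, described as sexually mature, and labelled with the model Zucker (fa/fa), in which the leptin receptor is mutated throughout the body. The lean rats carry that same model label and a protocol text on obese rats, which leaves their genotype unclear. The labels call the samples biological replicates but are silent on whether the testes came from different animals, and the p-values then reflect only the spread between these samples.

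Superoxide dismutases turn superoxide into hydrogen peroxide, and catalase splits hydrogen peroxide into water and oxygen. Thioredoxin reduces disulfide bonds in other proteins, passes electrons to peroxiredoxins, and is itself reduced by thioredoxin reductases, which are selenoproteins that draw on NADPH. Spermatids make their own versions of these proteins while the sperm tail and acrosome are built and chromatin is compacted. Txnrd3, or thioredoxin-glutathione reductase, joins a glutaredoxin domain to a thioredoxin reductase. Txndc2 (sperm-specific thioredoxin) is known from the fibrous sheath of the sperm tail, and Txndc8 is a thioredoxin of spermatids known from the Golgi apparatus and acrosome.

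Promoter sequences from RefSeq, build GRCr8, were matched for 9 of the 10 genes, in 11 windows that run from 250 bases before to 50 bases after the annotated start. The windows of the 3 germ cell genes and of Txn1, the widely expressed relative of Txndc2 and Txndc8, are shown. Capitals mark CpG, each line runs 5′ to 3′ on the strand of the gene, and for Txndc2 the window of the first listed start is given.
Txnrd3, chr4:123629518-123629817, plus strand: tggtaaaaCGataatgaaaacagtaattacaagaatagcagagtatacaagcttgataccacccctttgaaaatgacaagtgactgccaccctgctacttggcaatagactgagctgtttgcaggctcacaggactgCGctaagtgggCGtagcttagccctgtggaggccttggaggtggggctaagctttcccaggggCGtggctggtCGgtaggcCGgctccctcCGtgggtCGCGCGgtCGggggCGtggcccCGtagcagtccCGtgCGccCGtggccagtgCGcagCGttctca
Txndc2, chr9:112681917-112682216, minus strand: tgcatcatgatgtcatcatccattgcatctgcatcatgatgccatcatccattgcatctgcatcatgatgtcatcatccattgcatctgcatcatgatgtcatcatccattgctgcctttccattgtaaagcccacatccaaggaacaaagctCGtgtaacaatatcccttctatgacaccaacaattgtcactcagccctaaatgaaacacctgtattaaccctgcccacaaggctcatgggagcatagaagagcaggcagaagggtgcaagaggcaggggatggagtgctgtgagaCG
Txndc8, chr5:77580928-77581227, minus strand: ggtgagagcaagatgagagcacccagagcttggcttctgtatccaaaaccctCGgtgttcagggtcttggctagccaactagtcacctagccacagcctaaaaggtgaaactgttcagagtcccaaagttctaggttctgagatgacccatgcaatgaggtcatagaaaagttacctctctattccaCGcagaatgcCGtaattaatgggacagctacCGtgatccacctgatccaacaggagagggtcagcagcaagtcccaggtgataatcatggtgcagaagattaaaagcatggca
Txn1, chr5:77519636-77519935, minus strand: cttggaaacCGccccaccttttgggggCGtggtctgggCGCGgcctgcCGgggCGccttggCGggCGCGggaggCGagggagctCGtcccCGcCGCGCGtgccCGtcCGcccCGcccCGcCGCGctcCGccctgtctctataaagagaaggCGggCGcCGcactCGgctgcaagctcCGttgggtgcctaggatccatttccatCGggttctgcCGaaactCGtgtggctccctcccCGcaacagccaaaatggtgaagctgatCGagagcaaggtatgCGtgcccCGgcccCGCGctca

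The 4 windows differ in CpG. The Txn1 window holds 36 CpG, an observed-to-expected ratio of 0.98, and the Txnrd3 window holds 18, a ratio of 0.72. The Txndc8 window holds 4 (0.23) and the Txndc2 window 2 (0.12). Over all 33469 rat promoter windows of this length the median was 7 CpG and the median ratio 0.39. Of the 3 germ cell genes, Txndc2 and Txndc8 thus lie below the median, and Txnrd3 lies above it with Txn1. Among widely expressed genes not shown, the first listed window of Txnrd1 also lies below it, with 5 CpG (0.35). The Cat window holds 13 (0.50), and the Sod2 window holds 36 as Txn1 does. CpG content therefore did not split the windows by class. The letters TGATGTCA occur 3 times in the Txndc2 window on either strand, inside a repeated stretch, and occur in 4.34% of all windows. This motif was picked after the sequence was seen. The cyclic AMP element TGACGTCA, found in 1.83% of windows, occurs in none of the 11 member windows, and TATAAA, found in 14.2%, occurs once in the Txn1 window and once in the Sod1 window. GGGCGG, found in 33.1% of windows, occurs 4 times in the Txn1 window and in none of the 3 germ cell windows shown. It is also absent from the Cat window and the first listed Txnrd1 window. The antioxidant response element TGACNNNGC, found in 12.1%, occurs once in the Sod2 window and once in the window of the second listed start of Txnrd1. Txn1 and Txndc8 are near neighbours on chromosome 5, with 2 unnamed loci between them.

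The array values are log2 expression after RMA, a procedure of background correction, normalization across arrays and summary over probes, so a difference of 1 is a doubling of signal. Array medians lay between 6.14 and 6.38. Over all genes the 6 arrays of normal testes correlated with each other at Pearson r from 0.994 to 0.997. The mean r with them was 0.856, 0.946 and 0.731 for under-developed replicates 1, 2 and 3, whereas it was 0.995 for replicate 4. The library labelled under-developed replicate 4 therefore stood with the normal testes, and the differences of the 10 enzymes from normal obese testes are given with all arrays and without it. That array was singled out after its values were seen. Leaving out an array that resembles the comparison group tends to enlarge differences and shrink the spread. The p-values and counts without it therefore describe the remaining arrays and are not valid tests.

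**Figure D1:**
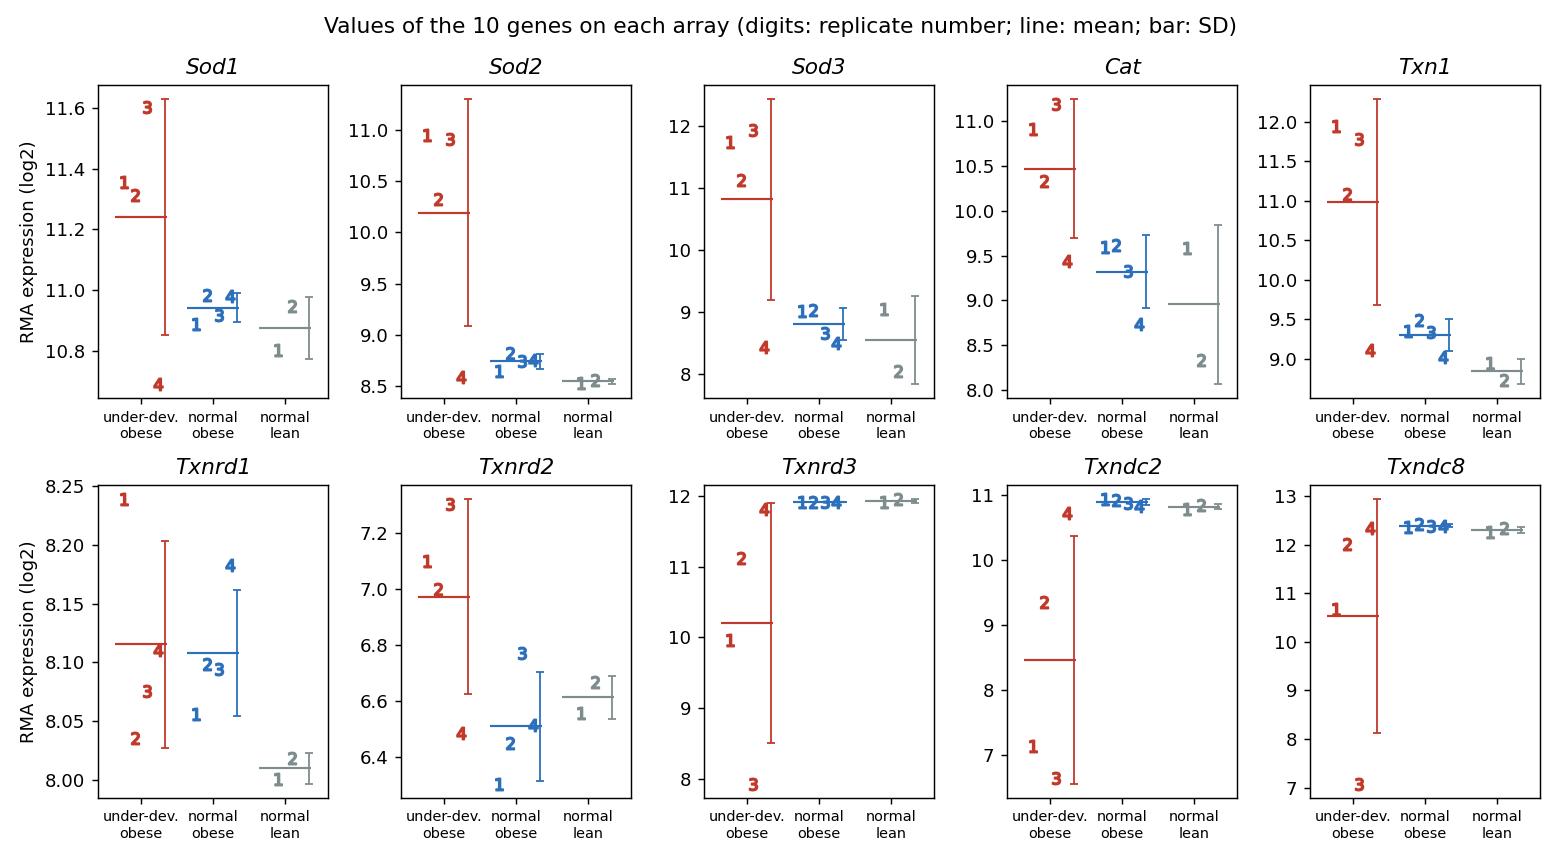
RMA log2 expression (vertical axes, each with its own range) of the 10 genes on each array of the 3 groups; digits are replicate numbers, horizontal lines group means and bars ± 1 SD. Under-developed replicates 1 to 3 lie above all other arrays for Sod1, Sod2, Sod3, Cat, Txn1 and Txnrd2 and below them for Txnrd3, Txndc2 and Txndc8, and replicate 4 lies near the normal arrays.

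When under-developed testes were set against normal ones of obese rats, the widely expressed genes and the germ cell genes went opposite ways in 3 of 4 under-developed testes. In replicates 1 to 3, 6 of the 7 widely expressed genes exceeded every other array, as did 27.7% of all genes, and the 3 germ cell genes lay below every other array, as did 26.2% of all genes. Txnrd1 was the exception, with overlapping values. With all arrays in the limma fit, none of the 10 genes passed an adjusted p of 0.05 (Benjamini-Hochberg over all genes), and 0 of 18166 genes passed (0.0% in either direction). At an unadjusted p under 0.05 the fit held 7 of the 10 genes, against 46.6% of all genes. Without under-developed replicate 4, limma called 6 of the 10 genes higher, against 29.6% of all genes (5381), and 2 lower, against 26.4% (4790). Since 56.0% of all genes were called in that fit, a count of 8 in 10 is not far above the background. Array weights in limma give less weight to arrays that lie far from their group mean. The lowest weight, 0.0619, went to under-developed replicate 4, so this fit is not separate from the one without that array. With these weights 6 of the genes were called higher, against 28.4% of all genes, and 3 lower, against 25.9%. Bulk RNA cannot tell fewer cells of a type from less RNA per cell.

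Among the superoxide dismutases, extracellular Sod3 and mitochondrial Sod2 differed far more than cytosolic Sod1. Sod3, the secreted copper-zinc enzyme of the extracellular matrix, had log2 values of 11.74, 11.13, 11.93 and 8.44 in under-developed testes, against 9.02, 9.02, 8.66 and 8.50 in normal obese testes and 9.05 and 8.04 in lean testes. Replicates 1 to 3 stood above all others and replicate 4 below all normal obese values. The difference between under-developed and normal obese testes was 2.01 ± 0.69 log2 (SE, limma adjusted p = 0.0704), and without replicate 4 it was 2.80 ± 0.28, a 6.97-fold rise (adjusted p = 0.000115).

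Sod2, the manganese enzyme of the mitochondrial matrix, had 10.94, 10.32, 10.91 and 8.59 in under-developed testes, against 8.64, 8.82, 8.75 and 8.76 in normal obese testes and 8.53 and 8.56 in lean testes. The normal values spanned little, so replicates 1 to 3 were well apart and replicate 4 was inside the normal range. The difference of 1.45 ± 0.46 log2 had a limma adjusted p of 0.0702, and it was 1.98 ± 0.15 without replicate 4, a 3.94-fold rise (adjusted p = 6.13e-05).

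Sod1, the copper-zinc enzyme of the cytosol, had 11.36, 11.31, 11.60 and 10.69 in under-developed testes, against 10.89, 10.98, 10.92 and 10.98 in normal obese testes and 10.80 and 10.95 in lean testes. Replicates 1 to 3 were above and replicate 4 below all 6 normal testes. The difference was 0.30 ± 0.18 log2 (limma adjusted p = 0.212) with all arrays. Without replicate 4 it was 0.48 ± 0.10, a 1.40-fold rise (adjusted p = 0.00391). Sod1 changed sign to -0.24 when arrays were centred on ribosomal protein genes, a scaling that moved the median difference of all genes to -0.48 from 0.06. Within single arrays, the departure of Sod3 from its normal obese mean exceeded that of Sod1 by 2.53, 1.96, 2.47 and -0.11 log2 in the under-developed testes, replicates 1 to 4.

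Cat encodes catalase of the peroxisome. It had 10.92, 10.33, 11.20 and 9.44 log2 in under-developed testes, against 9.60, 9.62, 9.33 and 8.74 in normal obese testes and 9.59 and 8.33 in lean testes. Replicates 1 to 3 were above every normal testis, and replicate 4 was among them. Cat also varied most of the widely expressed genes within the normal obese group (SD 0.41, n = 4). The difference was 1.15 ± 0.42 log2 (limma adjusted p = 0.0739), and 1.50 ± 0.35 without replicate 4, a 2.82-fold rise (adjusted p = 0.00573).

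Txn1 and, by a smaller step, Txnrd2 were higher in under-developed replicates 1 to 3, whereas Txnrd1 was not. Txn1, the thioredoxin of cytosol and nucleus, had 11.95, 11.08, 11.78 and 9.11 log2 in under-developed testes, against 9.35, 9.49, 9.34 and 9.02 in normal obese testes and 8.95 and 8.73 in lean testes. Replicates 1 to 3 lay above all others, while replicate 4 fell within the normal obese values. The difference was 1.68 ± 0.54 log2 (limma adjusted p = 0.0702), and 2.30 ± 0.21 without replicate 4, a 4.94-fold rise (adjusted p = 9.01e-05).

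Txnrd1, the cytosolic reductase of that thioredoxin, had 8.24, 8.04, 8.08 and 8.11 in under-developed testes, against 8.06, 8.10, 8.09 and 8.18 in normal obese testes and 8.001 and 8.02 in lean testes. The under-developed and normal obese values overlapped. The difference was 0.01 ± 0.09 log2, with a 95% confidence interval of -0.19 to 0.21 (limma adjusted p = 0.956), and 0.01 with an interval of -0.20 to 0.22 without replicate 4. These intervals leave room for a change of about 0.2 log2 either way, and centring on ribosomal protein genes gave -0.53. The departure of Txn1 from its normal obese mean exceeded that of Txnrd1 by 2.52, 1.85, 2.51 and -0.20 log2 in the under-developed testes, replicates 1 to 4.

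Txnrd2, the mitochondrial reductase, had a signal near the array medians. It had 7.10, 7.001, 7.30 and 6.49 in under-developed testes, against 6.31, 6.45, 6.77 and 6.51 in normal obese testes and 6.56 and 6.67 in lean testes. The first 3 under-developed replicates were above all normal values, by a narrow margin over normal obese replicate 3. The difference was 0.46 ± 0.18 log2 (limma adjusted p = 0.0827), and 0.62 ± 0.13 without replicate 4, a 1.54-fold rise (adjusted p = 0.00366). Txnrd2 was at -0.08 with all arrays after centring on ribosomal protein genes.

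The germ cell genes were steady in normal testes and scattered widely in under-developed ones. Txnrd3 had 9.96, 11.12, 7.94 and 11.81 log2 in under-developed testes, against 11.91, 11.92, 11.91 and 11.91 in normal obese testes and 11.91 and 11.95 in lean testes. The groups did not overlap, although replicate 4 was at only -0.10 log2 from the normal obese mean. The SD was 1.70 among under-developed testes (n = 4) and 0.0042 among normal obese testes (n = 4). The difference was -1.71 ± 0.69 log2 (limma adjusted p = 0.0896), and -2.24 ± 0.60 without replicate 4, which is 4.73-fold lower (adjusted p = 0.0112).

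Txndc2 had 7.14, 9.35, 6.65 and 10.72 log2 in under-developed testes, against 10.93, 10.92, 10.87 and 10.83 in normal obese testes and 10.79 and 10.85 in lean testes. Every under-developed value was below every normal value. The difference was -2.43 ± 0.78 log2 (limma adjusted p = 0.0702), and -3.18 ± 0.53 without replicate 4, which is 9.04-fold lower (adjusted p = 0.00116). Txndc2 thus fell the most of the 10 genes in this fit. Its SD was 1.44 in under-developed replicates 1 to 3 and 0.047 in normal obese testes. limma here took the same spread per gene for all groups. For the germ cell genes the SE therefore understates the spread of the under-developed testes, and the adjusted p-values can be too small.

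Txndc8 had 10.68, 12.02, 7.08 and 12.35 log2 in under-developed testes, against 12.36, 12.42, 12.39 and 12.40 in normal obese testes and 12.26 and 12.34 in lean testes. The under-developed and normal obese values did not overlap, but replicate 4 was above both lean values. The difference was -1.86 ± 0.98 log2 (limma adjusted p = 0.164), and -2.47 ± 0.94 without replicate 4 (adjusted p = 0.0509), so Txndc8 did not pass in either fit. Under-developed replicate 3 carried much of it, and without that array the differences were -0.71 for Txndc8, -0.95 for Txnrd3 and 0.18 for Sod1. With all arrays, lower values without overlap with normal obese testes were found for the 3 germ cell genes and for 10.4% of all genes, and higher values without overlap for none of the 10 genes and for 7.44% of all genes.

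**Figure D2:**
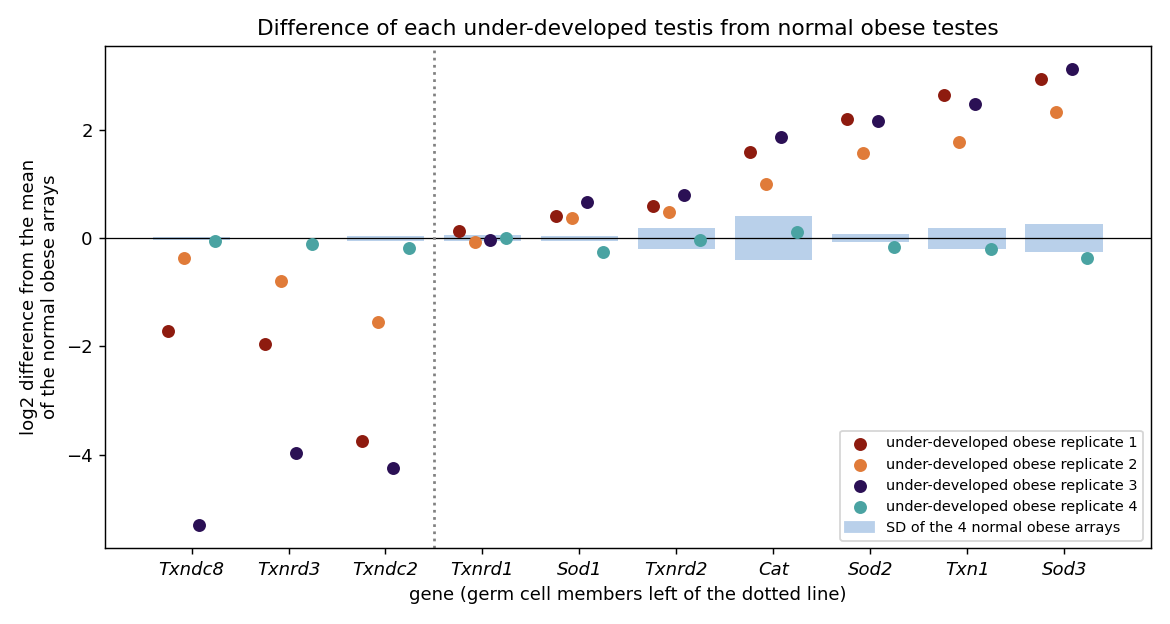
Log2 difference (vertical axis) of each under-developed testis from the average normal obese array (n = 4) for each of the 10 genes (horizontal axis), with the 3 germ cell genes left of the dotted line; points are single arrays and blue bars show ± 1 SD of the normal obese arrays. Differences reach -5.31 for Txndc8 and 3.13 for Sod3, both in replicate 3, and Txnrd1 stays between -0.07 and 0.13.

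All 3 germ cell genes ranked the under-developed testes alike, with replicate 3 lowest, then 1, 2 and 4, but the order of the genes within a testis differed. In replicate 1, the departures from the normal obese mean were -3.75 log2 for Txndc2, -1.95 for Txnrd3 and -1.72 for Txndc8. In replicate 2 the departures were -1.54 for Txndc2, -0.80 for Txnrd3 and -0.37 for Txndc8. In replicate 3 the order of the genes was another, with -5.31 for Txndc8, -4.24 for Txndc2 and -3.98 for Txnrd3. Txndc2 was therefore nearly as low in replicate 1 as in replicate 3, whereas Txndc8 was far lower in replicate 3. The departure of Txndc2 minus that of Txndc8 was -2.03, -1.17 and 1.07 log2 in replicates 1, 2 and 3 and -0.13 in replicate 4. Over the 10 arrays, Pearson r was 0.981 between Txnrd3 and Txndc8, 0.951 between Txnrd3 and Txndc2 and 0.877 between Txndc2 and Txndc8, values that rest largely on the 3 divergent testes.

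Averaged over each class, the germ cell genes departed from the normal obese mean by -2.47, -0.90, -4.51 and -0.11 log2 in the under-developed testes, replicates 1 to 4. The widely expressed genes departed by 1.50, 1.07, 1.58 and -0.12. The germ cell mean minus the widely expressed mean was -3.97, -1.97, -6.09 and 0.02 in under-developed testes, and lay between -0.09 and 0.33 in the 6 normal testes. The class means thus separated in replicates 1 to 3 and not in replicate 4. The germ cell mean ranged over several log2 units among those 3 testes, while the widely expressed mean ranged over little. For the neighbours on chromosome 5, the departure of Txndc8 minus that of Txn1 was -4.36, -2.15, -7.79 and 0.15 in under-developed replicates 1 to 4. For the reductases, Txnrd3 minus Txnrd1 was -2.08, -0.72, -3.95 and -0.10. Medians over genes of the fitted difference with all arrays were -1.86 for the germ cell class, 1.15 for the widely expressed class and 0.06 for all genes, and without replicate 4 they were -2.47, 1.50 and 0.07.

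**Figure D3:**
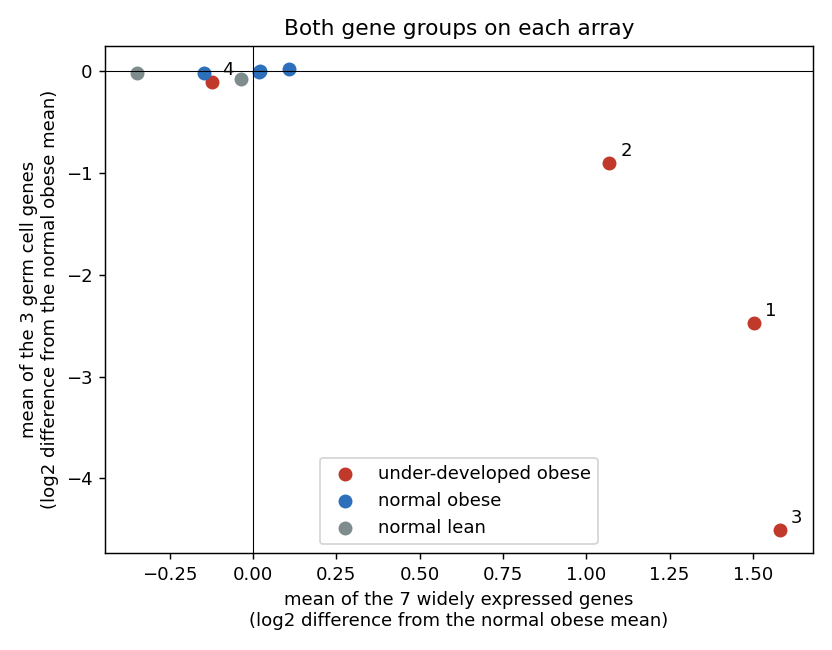
Mean departure of the 7 widely expressed genes (horizontal axis) and of the 3 germ cell genes (vertical axis) from the normal obese mean, in log2, with a point for each of the 10 arrays and replicate numbers beside the under-developed ones. Replicates 1, 2 and 3 lie at the lower right, and replicate 4, at -0.12 and -0.11, lies with the 6 normal arrays.

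Under-developed replicate 4 lay outside the normal range for some of the 10 genes, as for many other genes, which does not set these genes apart. It was below all 6 normal testes for Sod1, Txnrd3 and Txndc2, as it was for 18.6% of all genes, and above all of them for none of the 10, against 17.8% of all genes. These departures were -0.25, -0.10 and -0.17 log2 from the normal obese mean.

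In normal testes of obese against lean rats none of the 10 genes passed, and no gene on the array did (0.0% of 18166 genes by limma, with 0.44% at an unadjusted p under 0.05, among them none of the 10). The differences ran from -0.10 ± 0.22 log2 for Txnrd2 to 0.46 ± 0.67 for Txn1, and the limma adjusted p was 1.00 for each. Txn1 had 9.35, 9.49, 9.34 and 9.02 in normal obese testes, against 8.95 and 8.73 in lean testes, and did not overlap. Sod2, Txnrd1 and Txndc8 were also higher in every normal obese testis than in either lean testis, as were 7.7% of all genes, and none of the 10 was lower in every one, against 7.27% of all genes. Their differences were small, at 0.20 ± 0.56 log2 for Sod2, 0.10 ± 0.11 for Txnrd1 and 0.09 ± 1.21 for Txndc8. The SE in this fit carries the spread of the under-developed arrays. Without under-developed replicate 4 the SE of Txn1 was 0.24 and that of Sod2 0.17, and the adjusted p remained 1.00. With array weights 1 gene on the array was called higher (0.0055%), which was none of the 10.

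Among the germ cell genes the difference between normal obese and lean testes was -0.02 ± 0.85 log2 for Txnrd3 and 0.07 ± 0.96 for Txndc2. For Txnrd3 the values of both groups lay between 11.91 and 11.95. Cat and Sod3 depended on the lean arrays, whose values were 9.59 and 8.33 for Cat and 9.05 and 8.04 for Sod3. The differences of 0.36 for Cat and 0.25 for Sod3 turned to -0.27 and -0.25 without lean replicate 2 and were 0.99 and 0.75 without lean replicate 1.

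When under-developed testes were set against lean testes, none of the 10 genes passed with all arrays (0.0% of all genes by limma), and 5 of the 10 had an unadjusted p under 0.05, against 31.8% of all genes. This comparison shares arrays with both others, so it adds values and no separate evidence. Without under-developed replicate 4, limma called 6 genes higher, against 25.6% of all genes, and 2 lower, against 23.2%, out of 48.8% called in either direction. With array weights 5 were higher, against 27.3%, and 3 lower, against 25.6%. With all arrays Sod3 was at 2.26 ± 0.85 log2, Txn1 at 2.14 ± 0.67 and Txndc2 at -2.36 ± 0.96, each with a limma adjusted p of 0.154. Without replicate 4 these were the largest called, with Sod3 at 3.05 ± 0.33 (adjusted p = 0.000289), Txn1 at 2.77 ± 0.25 (adjusted p = 0.000196) and Txndc2 at -3.11 ± 0.64 (adjusted p = 0.00422). In that fit Txnrd3 was at -2.26 ± 0.71 (adjusted p = 0.0278), Txndc8 missed the threshold (adjusted p = 0.113) and Txnrd1 was at 0.11 ± 0.11 (adjusted p = 0.461). With all arrays, Txndc8 was at -1.77 ± 1.21 and Txnrd3 at -1.72 ± 0.85, which without under-developed replicate 3 were -0.62 and -0.97. Sod1 was at 0.37 ± 0.22, and 0.25 without that array. Cat was at 1.51 ± 0.52, and 0.88 without lean replicate 2.

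Other redox genes were read from lists of related genes. With all arrays none of their genes passed in under-developed against normal obese testes, where the smallest limma adjusted p of any gene was 0.0702. The counts and adjusted p-values that follow are from the limma fit without under-developed replicate 4, an array left out after its values were seen. They are a description and not a valid test. In that fit 29.6% of all genes were higher and 26.4% lower, with a median of 0.07 log2. Of 18 measured genes on a list of thioredoxin-domain genes that also held the thioredoxin inhibitor Txnip, 8 were higher and 8 lower. The shares of all genes were 29.6% and 26.4%, and the median difference of the list was 0.18 log2. Txndc5, a protein disulfide isomerase of the endoplasmic reticulum, was set off from its normal obese mean by 3.08, 1.93, 2.85 and -0.26 log2 in the 4 under-developed testes. Nme8, a thioredoxin-domain protein of sperm and cilia, departed by -2.27, -0.71, -5.66 and 0.04, so that the testes ranked as they did for all 3 germ cell enzymes.

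Of 14 peroxiredoxins, glutathione peroxidases and sulfiredoxin, which use or regenerate the peroxide-reducing site, 8 were higher and 3 lower (against 29.6% and 26.4% of all genes), with a median of 0.55 log2. Prdx2, a peroxiredoxin of the cytosol that thioredoxin reduces, rose by 2.00 ± 0.16 log2 (adjusted p = 6.83e-05), and Gpx1, the cytosolic glutathione peroxidase, rose by 1.87 ± 0.21 (adjusted p = 0.000194). With all arrays the values were 1.42 ± 0.49 for Prdx2 and 1.27 ± 0.53 for Gpx1. Both were among the higher genes in replicates 1 to 3, with departures of 2.21, 1.55 and 2.23 for Prdx2 and 2.29, 1.32 and 2.00 for Gpx1, and both were below the normal obese mean in replicate 4, at -0.32 and -0.53. Gpx4, the phospholipid hydroperoxide glutathione peroxidase that also builds the midpiece of sperm, fell by 0.91 ± 0.22 log2 (adjusted p = 0.00711). Prdx1, Prdx3 and Prdx6 rose by 1.63, 1.68 and 1.68, whereas Prdx4, the peroxiredoxin of the endoplasmic reticulum, fell by 0.68 ± 0.17 (adjusted p = 0.00968). With all arrays these were -0.73 for Gpx4, 1.18 for Prdx1, 1.23 for Prdx3, 1.24 for Prdx6 and -0.57 for Prdx4. These last 5 genes, and Txnip, Ccs, Nfe2l2, Keap1, Nqo1, Gclc, Gclm and Srxn1 below, were chosen after their values were seen.

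Of 8 glutaredoxin and glutathione genes, 4 were higher and 3 lower (against 29.6% and 26.4% of all genes). Glrx, the cytosolic glutaredoxin, rose by 1.38 ± 0.20 log2 (adjusted p = 0.00052), while Glrx2, which has mitochondrial and testis forms in human, fell by 1.69 ± 0.36 (adjusted p = 0.00405). With all arrays the values were 1.09 for Glrx and -1.28 for Glrx2. Their departures were 1.27, 1.05, 1.82 and 0.23 for Glrx and -1.85, -0.65, -2.57 and -0.06 for Glrx2 in under-developed replicates 1 to 4. The glutaredoxins thus held members on both sides, as the thioredoxins did. Txnip, which binds and inhibits thioredoxin, rose by 2.38 ± 0.20 log2 (adjusted p = 7.11e-05, and 1.71 ± 0.57 with all arrays), in the same direction as Txn1.

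Of 11 genes for sources of superoxide, 6 were higher and 2 lower (against 29.6% and 26.4% of all genes), with a median of 0.39 log2. Cybb, the catalytic subunit of the phagocyte NADPH oxidase, rose by 2.65 ± 0.39 log2 (adjusted p = 0.000596), and Xdh, xanthine dehydrogenase, rose by 2.57 ± 0.30 (adjusted p = 0.000212). With all arrays they were at 1.96 ± 0.66 and 1.85 ± 0.64. Of 10 genes of NRF2, the transcription factor of the antioxidant response, its inhibitor and its targets, 8 were higher and 1 lower (against 29.6% and 26.4% of all genes), with a median of 1.04. The cystine transporter gene Slc7a11 rose by 3.17 ± 0.27 log2 (adjusted p = 7.09e-05), and Abcc1, an exporter of glutathione conjugates, by 1.59 ± 0.22 (adjusted p = 0.000436). The gene of NRF2 itself, Nfe2l2, rose by 0.71 ± 0.13 (adjusted p = 0.0021), and that of its inhibitor, Keap1, fell by 0.75 ± 0.15 (adjusted p = 0.00277). With all arrays the values were 2.40 ± 0.67 for Slc7a11, 1.28 ± 0.32 for Abcc1, 0.53 ± 0.19 for Nfe2l2 and -0.60 ± 0.19 for Keap1. Nqo1 of this list did not pass without replicate 4, at 0.40 ± 0.21 (limma adjusted p = 0.14). Redox genes counted in other lists went both ways in that fit. Gclc was at 0.79 ± 0.17, Gclm at -1.22 ± 0.16 and Srxn1 at -0.23 ± 0.11 (limma adjusted p = 0.00392, 0.000365 and 0.0925). With all arrays these were 0.21 for Nqo1, 0.54 for Gclc, -0.94 for Gclm and -0.12 for Srxn1. The activity of NRF2 was not tested.

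Of 7 genes for copper delivery and peroxisomal import, 1 was higher and 1 lower, shares below the 29.6% and 26.4% of all genes. Slc31a1, the copper importer, rose by 0.89 ± 0.15 log2 (adjusted p = 0.00126), and Pex13, a peroxisomal import protein, fell by 0.82 ± 0.17 (adjusted p = 0.00348). Ccs, the chaperone that loads copper into Sod1, was at 0.18 ± 0.17 (adjusted p = 0.381). With all arrays the values were 0.64 for Slc31a1, -0.65 for Pex13 and 0.13 for Ccs. Of 7 genes for the making and uptake of selenoproteins, the class that holds the thioredoxin reductases, 1 was higher and 4 lower (against 29.6% and 26.4% of all genes), with a median of -0.54. Sephs2, a selenophosphate synthetase, departed by -2.11, -1.23, -4.11 and -0.01 log2 in the 4 under-developed testes. Lrp8, the receptor through which testis takes up selenoprotein P in mouse, departed by -2.01, -1.65, -2.39 and 0.22. The lists overlap in function, and no list was set against other genes by a test.

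**Figure D4:**
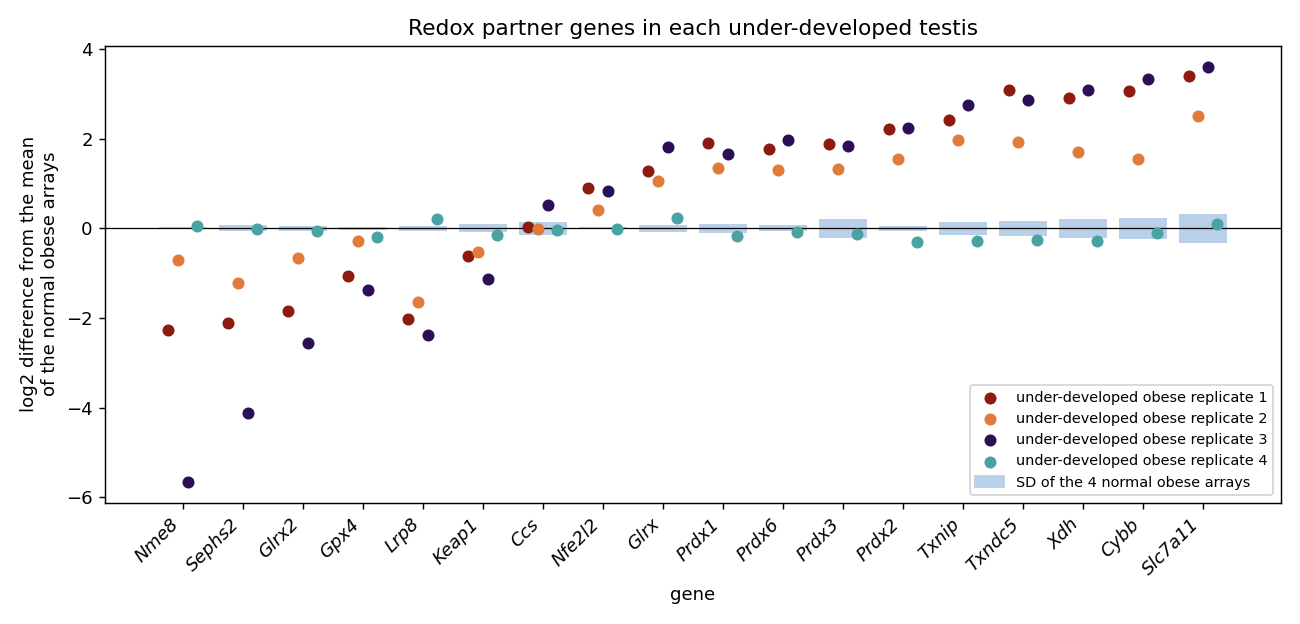
Log2 difference (vertical axis) of each under-developed testis from the average normal obese array (n = 4) for 18 genes (horizontal axis) picked by hand from the redox lists. Points are single arrays and blue bars show ± 1 SD of the normal obese arrays. Nme8 reaches -5.66 and Slc7a11 3.60 in replicate 3. For the genes shown, replicate 4 lies between -0.32 (Prdx2) and 0.23 (Glrx), and Gpx1, which is not shown, was at -0.53 there.

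Markers of testis cell types moved with both classes of enzyme. Mean log2 levels of the spermatid list (10 genes) lay between 7.88 and 11.5 in under-developed replicates 1 to 3, at 12.2 in replicate 4, between 12.23 and 12.26 in normal obese testes and between 12.22 and 12.25 in lean testes. Without replicate 4, limma called 9 of these 10 lower, along with 8 of 9 spermatocyte markers, against 26.4% of all genes. The macrophage list (8 genes) had means between 8.69 and 9.73 in under-developed replicates 1 to 3, 7.06 in replicate 4, 6.84 to 7.36 in normal obese testes and 6.74 to 7.07 in lean testes, and all 8 were higher, against 29.6% of all genes. The Sertoli cell list (9 genes) had means of 9.47 to 9.998 in under-developed replicates 1 to 3, 8.36 in replicate 4, 8.31 to 8.42 in normal obese testes and 8.25 to 8.36 in lean testes, with 7 higher and 1 lower. Of the other markers measured, 3 of 3 peritubular myoid, 3 of 3 endothelial, 4 of 6 Leydig, 2 of 3 red blood cell and 1 of 6 epididymis genes were higher. Of 8 spermatogonial markers 3 were higher and 2 lower, and of 4 adipocyte markers 2 were lower. With 29.6% of all genes higher and 26.4% lower, the epididymis and spermatogonial counts are at or near the background. The epididymis list stayed between 4.86 and 5.39 on every array, below the array medians. The part of these cell types in the enzyme results was not tested.

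The genes whose values most resembled each enzyme over the 10 arrays were ranked by Pearson r, as a description of points that share the same 3 divergent testes. For Txnrd3 they were Trim36, Sun3 and Zpbp2, each with r of 0.9997. For Txndc2 they were Sil1, Fscn3 and Oxct2b (0.9992 to 0.9994), and for Txndc8 Stk33, Ddx25 and Dynlt2 (0.9996 to 0.9997). Sun3 is a nuclear envelope protein of spermatids, Zpbp2 an acrosome protein and Ddx25 an RNA helicase of germ cells. For Sod2 they were Akr1b1, Vapa and Ugdh, for Sod3 Tmem176b, B2m and Adgrl2, and for Txn1 Pltp, Fgl2 and Stat3, with r from 0.995 to 0.999. Cat ran with Osr1, Vav3 and Tsc22d3 (r from 0.979 to 0.991), Sod1 with Lsm7, Cyc1 and Pigm (0.988 to 0.990) and Txnrd2 with Ceacam16, Tfpi and Negr1 (0.968 to 0.974). Txnrd1 had the weakest likeness, 0.871 to 0.887, with Emc7, Cst11 and Vom1r77. None of the genes named for a widely expressed enzyme was among those named for a germ cell enzyme. This followed from the ranking and is no separate result. Every r between a germ cell and a widely expressed enzyme was negative, from -0.96 (Sod2 with Txndc2) to -0.12 (Txnrd1 with Txndc8).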

How the data were processed

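Total RNA of 10 testes was extracted with Trizol and labelled with the Affymetrix WT PLUS kit, per the labels' protocols. The authors deposited log2 values per probe set, made with RMA per the submitters' processing notes. RMA settings, software and genome build are not given in the sources used here. RMA takes the overall distribution of signal to be alike between arrays, so values are relative to the other genes of an array, and it gives no detection calls. No scan date or slide was given.

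Of 36685 probe sets, 18511 had 1 gene symbol, 575 several and 17599 none here, and symbols were updated through the RefSeq gene table (18394 matched). For the 291 genes with several probe sets the one with the highest mean was used, giving 18166 genes, dim ones included. Groups came from the sample titles. limma 3.58.1 (R 4.3.3, lmFit and eBayes) fitted a mean per group to all arrays, with Benjamini-Hochberg adjustment over all genes and a threshold of 0.05. Departures of single arrays are from the normal obese mean (n = 4). Tables and plots used Python 3.11.15, pandas 2.3.3, numpy 2.4.6, scipy 1.17.1 and matplotlib 3.10.9. The fit was tested on simulated data with 200 changed genes. It recovered 54% of the smaller and 91% of the larger changes, with 13 false calls. Each simulated gene had the same spread in every group, so this cannot show how the fit handles the unequal spread of these arrays.

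The members, the lists of other genes and the tests were chosen with earlier results of these data known. All 10 enzymes are named, with the 3 genes most alike to each (unnamed loci, olfactory receptors and microRNAs left out) and, of each redox list, the 2 measured genes with the largest difference between under-developed and normal obese testes. Replicate numbers are shared by the groups, and the main fit did not pair the arrays by them. Deviations from the group mean of same-numbered under-developed and normal obese arrays correlated at 0.077, 0.0069, 0.024 and 0.26. The wide spread among the under-developed arrays shapes these deviations, so the correlations cannot settle whether arrays were paired. The number of arrays limits the precision. Alternatives were other scalings, an offset of 50 before log2, a dim-gene filter at the 25th percentile, other uses of probe sets, other moderation, array weights, fits of 2 groups, the replicate block and leaving out each array.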

Additional observations from a re-analysis of the deposited data

How the results depend on the processing

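With all arrays no gene passed in any comparison, and no scaling, filter, probe set rule, moderation or offset gave a call among the 10 enzymes. Array weights, which gave under-developed replicates 1 to 4 weights of 0.967, 0.282, 0.186 and 0.0619 and normal arrays 2.42 to 2.75, called 5151 genes higher and 4711 lower in under-developed against normal obese testes, with 6 and 3 of the enzymes. Against lean testes they called 4961 higher and 4659 lower, with 5 and 3 of the enzymes. In normal obese against lean testes 1 gene was higher with array weights, as was 1 in the fit of those groups alone. Leaving out each array in turn gave 0 to 5381 genes higher and 0 to 4790 lower in under-developed against normal obese testes (enzymes 0 to 6 and 0 to 2), and 0 to 4646 and 0 to 4220 against lean testes (0 to 6 and 0 to 2). Every call in these ranges came without under-developed replicate 4. Whether the replicate numbers pair the arrays could not be settled, and the fit with the replicate block called 0 genes. Under that block normal obese against lean testes gave 0.15 for Txnrd3 and -0.021 for Txndc2.

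Signs turned mainly for small differences, and the cause was not tested. In under-developed against normal obese testes Txnrd1 was at -0.071 after median centring, -0.0054 after quantile normalization and -0.53 after centring on 55 ribosomal protein genes, which also gave Sod1 -0.24 and Txnrd2 -0.077, and it ranged from -0.034 to 0.034 when single arrays were left out. Against lean testes that centring gave Sod1 -0.28, Txnrd1 -0.54 and Txnrd2 -0.28. In normal obese against lean testes it gave Sod1 -0.037, Txnrd1 -0.0056, Txndc2 -0.033 and Txndc8 -0.012. Leaving out single arrays there gave -0.27 to 0.99 for Cat, -0.25 to 0.75 for Sod3, -0.0044 to 0.14 for Sod1 and -0.036 to 0.0032 for Txnrd3. Of the other values of single enzymes, 278 kept direction and call when an array was left out and 299 did so under the remaining settings. A further 16 passed the threshold without under-developed replicate 4, and 17 with array weights, all in the same direction.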
